A study of Mus musculus with 18 samples.

Results

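RNA of 43 genes of the cell cycle and of DNA replication was compared between *Atrx* WT and *Atrx* KO mesenchymal progenitor cells (MPCs) in 18 RNA-seq libraries, of which 9 were made from polyA-selected and 9 from rRNA-depleted RNA. The members were found by symbol, through their Entrez identifiers, among the 24100 gene rows of each count table. Of the 43, 17 act at the passage from G1 into S phase (G1/S), 11 in replication licensing and origin firing, and 15 in G2 and mitosis (G2/M). The cells were C3H/10T1/2, an established mouse embryonic mesenchymal line, grown without differentiation cues. The *Atrx* WT line carried the empty Cas9 vector, and each KO line was 1 clone made with 1 guide against *Atrx*, here called the sg5 clone and the sg6 clone. Each line had 3 libraries of each kind, so n = 3 stands for libraries of 1 line, whose spread may be technical, and anything else that sets these lines apart enters every comparison of a clone with WT.

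All 43 members passed the filter on low counts in both library kinds. *Atrx* RNA, the target of both guides, was at 276 to 328 CPM (counts scaled to normalised library size) in the polyA libraries of WT, with 114 to 138 for sg5 and 122 to 141 for sg6. In the rRNA-depleted libraries WT held 192 to 231 CPM, sg5 60.8 to 112 and sg6 75.6 to 101, so the RNA was lower in every library of both clones but not lost. Depth differed between the lines in polyA RNA, where WT libraries held 27544833 to 80772108 counts, sg5 libraries 161036799 to 235346363 and sg6 libraries 58918732 to 71896907. The rRNA-depleted libraries held 20135336 to 33187136. All 11 mesenchymal marker genes reached 1 CPM in at least 1 library of each kind, while 3 of 4 epithelial, 2 of 3 blood cell and 2 of 3 endothelial markers were under 1 CPM in every library. The summed CPM of the mesenchymal markers in polyA RNA was 40015 to 46000 for WT, 51046 to 54144 for sg5 and 58463 to 61776 for sg6, and in rRNA-depleted RNA 7091 to 8550, 8856 to 14311 and 8723 to 12417. Endothelial markers in polyA RNA summed to 1.22 to 1.92 CPM for WT, 9.37 to 14.1 for sg5 and 8.38 to 10.9 for sg6, and epithelial markers to 2.76 to 5.03, 0.890 to 1.71 and 0.340 to 0.723. In rRNA-depleted RNA the endothelial sums were 2.62 to 4.16, 3.35 to 14.1 and 7.75 to 10.0, and the epithelial sums 1.62 to 3.17, 0.115 to 0.580 and 0.302 to 0.570. Blood cell markers summed to at most 5.47 CPM in any library, and the part of such markers in the results was not tested.

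Dividing cells pass from G1 into S phase when D-type cyclins with CDK4 or CDK6, and then E-type cyclins with CDK2, phosphorylate the RB proteins and free E2F factors, which switch on genes of nucleotide supply and replication. Origins are licensed in G1, when CDC6 and CDT1 load the ring-shaped MCM2 to MCM7 helicase onto DNA, and they fire when CDC45 and the GINS complex join it. Genes of G2 and mitosis are switched on later by B-MYB, FOXM1 and the MuvB complex, which acts at a promoter element called CHR, often beside CCAAT boxes bound by NF-Y.

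The start regions of the members were searched for letters of these elements. RefSeq promoter windows of GRCm38.p6, from 250 bases before to 50 bases after a start, were at hand for 34 of the 43 members, in 37 windows, and *Ccnd1* and *Ccnd2* were not among them. Exact matches were searched on both strands for E2F sites (TTTCCCGC, TTTGGCGC, TTTCGCGC or TTCCCGCC, which can overlap one another), for the CHR (TTTGAA) and for CCAAT. E2F letters stood in 6 of 9 licensing windows (66.7%), 3 of 16 G1/S windows (18.8%) and 1 of 12 G2/M windows (8.33%), against 3.49% of all 32851 promoter windows. The CHR stood in 8 of 12 G2/M windows (66.7%), 2 of 9 licensing windows (22.2%) and 2 of 16 G1/S windows (12.5%), against 17.9% of all windows. CCAAT stood in 11 of 12 G2/M, 7 of 9 licensing and 8 of 16 G1/S windows, against 37.4% of all. A match is a run of letters and was not tested as a binding site. The 250 bases before the start are shown for members of each phase that the results below return to, the helicase subunit gene *Mcm6* (chr1:128359706-128359955, minus strand), the G2/M genes *Ccnb2* (chr9:70421555-70421804, minus strand) and *Top2a* (chr11:99024190-99024439, minus strand), and the nucleotide supply gene *Rrm2* (chr12:24708004-24708253, plus strand). Each is read 5′ to 3′ on the strand of the gene, and capitals mark every match of a searched motif.
Mcm6: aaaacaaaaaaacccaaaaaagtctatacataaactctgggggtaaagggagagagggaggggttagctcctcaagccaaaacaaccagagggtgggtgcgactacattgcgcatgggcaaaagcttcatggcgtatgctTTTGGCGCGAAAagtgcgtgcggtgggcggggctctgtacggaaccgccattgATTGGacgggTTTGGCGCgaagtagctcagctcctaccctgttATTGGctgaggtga
Ccnb2: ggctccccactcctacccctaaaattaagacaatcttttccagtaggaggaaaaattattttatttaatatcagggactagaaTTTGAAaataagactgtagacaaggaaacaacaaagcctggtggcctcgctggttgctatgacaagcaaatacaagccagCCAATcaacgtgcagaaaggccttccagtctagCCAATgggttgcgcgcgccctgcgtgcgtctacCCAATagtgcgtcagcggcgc
Top2a: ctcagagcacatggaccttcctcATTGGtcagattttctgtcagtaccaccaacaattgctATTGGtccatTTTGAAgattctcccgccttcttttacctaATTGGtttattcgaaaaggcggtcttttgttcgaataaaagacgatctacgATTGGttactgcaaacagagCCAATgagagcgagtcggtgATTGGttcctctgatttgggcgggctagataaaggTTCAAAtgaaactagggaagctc
Rrm2: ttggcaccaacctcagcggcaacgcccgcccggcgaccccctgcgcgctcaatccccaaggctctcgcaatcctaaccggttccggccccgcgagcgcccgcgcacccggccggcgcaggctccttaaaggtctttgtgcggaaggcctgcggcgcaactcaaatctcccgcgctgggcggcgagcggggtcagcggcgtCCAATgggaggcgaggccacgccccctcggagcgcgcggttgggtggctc
In these stretches *Mcm6* held E2F letters and CCAAT boxes in either orientation, *Ccnb2* and *Top2a* held the CHR with several CCAAT boxes, and *Rrm2* held a single CCAAT box.

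In polyA RNA, no member passed the threshold in either clone, set at an absolute log2 fold change above 1 and an adjusted p under 0.05 (edgeR's quasi-likelihood test with Benjamini-Hochberg adjustment over all genes). Over all 15480 genes tested, 3.18% were higher and 6.96% lower in sg5 by this threshold, 3.64% higher and 7.54% lower in sg6, and 2.18% higher and 5.48% lower in both. At an unadjusted p below 0.05 there were 4 members in sg5 and 3 in sg6, or 9.30% and 6.98% of them, against 38.9% and 41.7% of all genes. With DESeq2, 1 member was called higher in sg5 and 0 in sg6. By the adjusted p alone, *Ccnd1* and *Ccnd2* were higher in sg5 (13.6% of all genes were) and *Ccnd2* in sg6 (16.1%) and so in both (10.5%), while 0 members were lower in sg5, sg6 or both (13.4%, 14.6% and 9.7% of all genes). The 95% intervals lay wholly within a log2 fold change of 1 for 25 members in sg5 and for 16 in sg6, and for the others the interval reached past that size. In such bulk RNA, fewer cells in a phase and less RNA per cell cannot be told apart.

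In rRNA-depleted RNA, *Top2a* was the only member past the threshold, lower in sg5, where 1.86% of the 56086 genes and transposable element loci tested were lower and 1.19% higher. In sg6, 0 members passed (0.842% of all features were higher and 1.61% lower), also with DESeq2, and so 0 in both clones (0.496% and 1.09%). By the adjusted p alone *Top2a* was again the only member, in sg5 (1.82% of features were higher and 2.06% lower), with 0 in sg6 (1.18% and 1.72%). At an unadjusted p below 0.05 there were 10 members in sg5 and 2 in sg6, or 23.3% and 4.65% of them. The shares were 16.9% and 12.6% of all features, but 32.4% and 24.3% of the 13303 gene rows, so the members lay below the gene rows. By chromosome, 5.35% (chromosome 17) to 29.2% (chromosome 18) of gene rows had an adjusted p below 0.05 in sg5, in either direction. The shares over all features are thus lower than those of genes. The intervals lay within a log2 fold change of 1 for 22 members in sg5 and 33 in sg6.

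**Figure D1:**
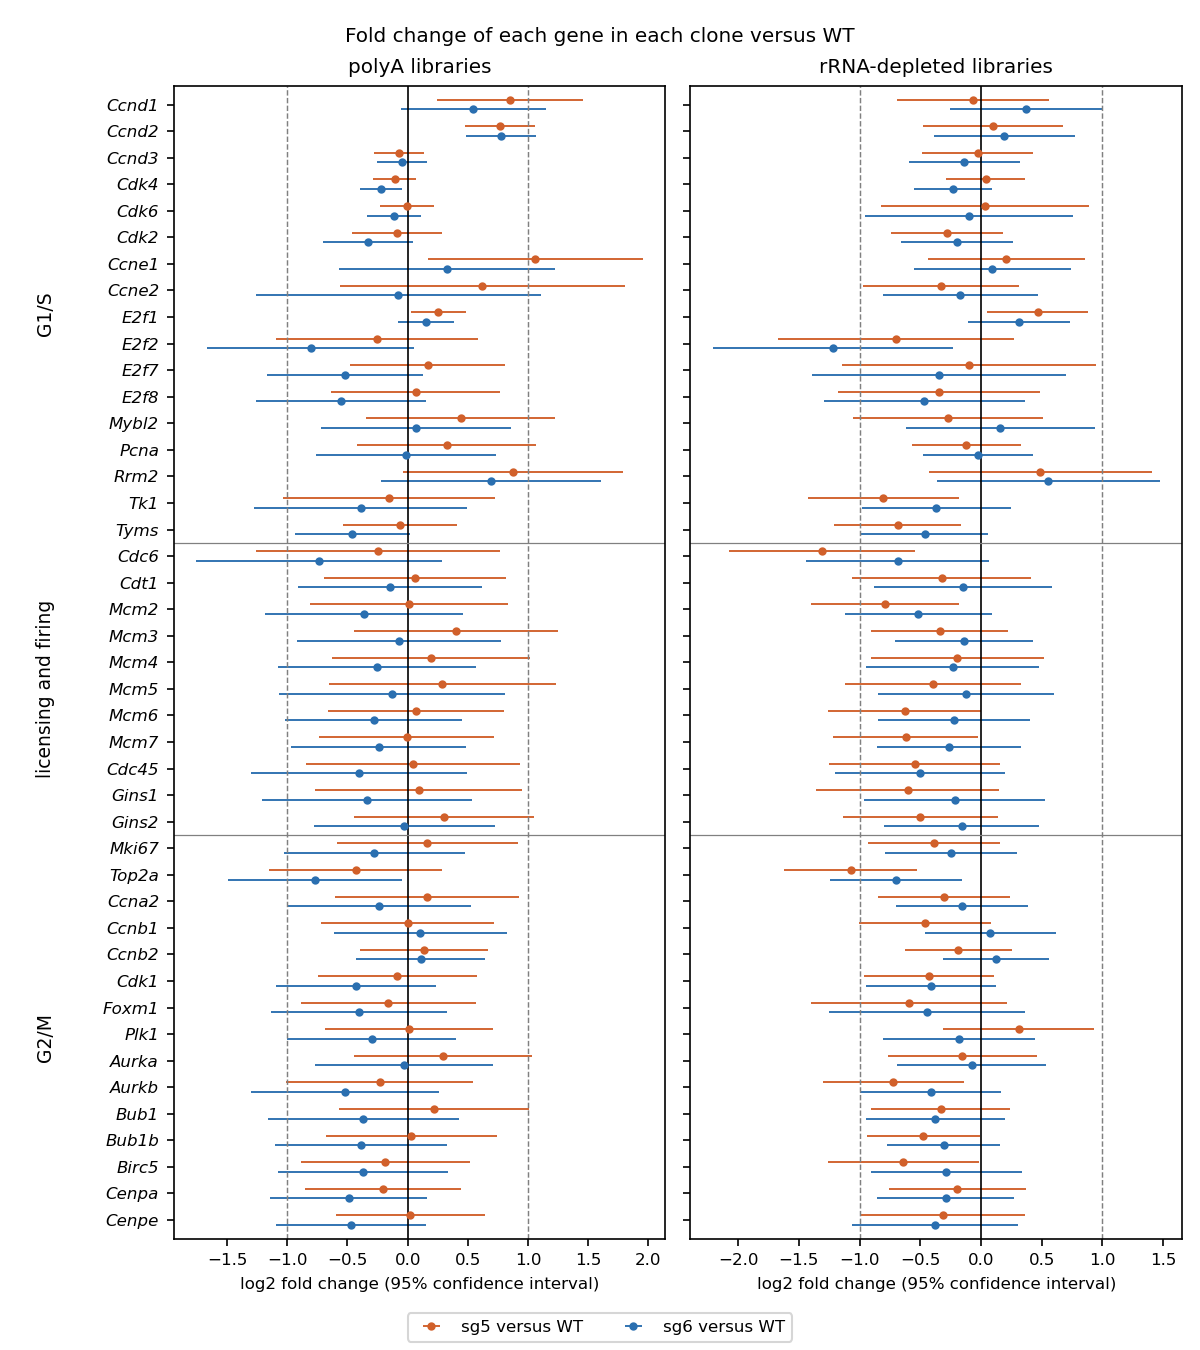
Log2 fold change of each of the 43 members in the sg5 and sg6 clones against *Atrx* WT, with 95% intervals, in polyA and rRNA-depleted RNA, grouped by phase, with dashed lines at -1 and 1. *Ccnd2* stands apart from 0 in both clones in polyA RNA, at 0.77 and 0.78, and *Top2a* (-1.07) and *Cdc6* (-1.31) reach furthest to the left in the sg5 clone in rRNA-depleted RNA.

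The median log2 fold changes of the phases ran from -0.55 to 0.17, and the kinds of library differed. In polyA RNA the median log2 fold change in sg5 was 0.17 for G1/S, 0.07 for licensing and 0.01 for G2/M, with 27 of 43 members above 0. In sg6 the same medians were -0.08, -0.26 and -0.37, with 8 of 43 members and 0 of 11 licensing genes above 0. The median over all 15480 genes was within 0.01 of 0 in each clone. In rRNA-depleted RNA the sg5 medians were -0.10, -0.55 and -0.39 and the sg6 medians -0.14, -0.22 and -0.29, against -0.06 and -0.04 over all features, or 0.08 and 0.04 over the 13303 gene rows. There, 7 members in sg5 and 8 in sg6 lay above 0, and 0 of 11 licensing genes in either clone. Each clone was compared with the same WT libraries, so the clones' values are not independent. The polyA licensing median turned on single libraries. In sg5 it was 0.49 without WT replicate 1, -0.21 without WT replicate 3 and -0.10 without sg5 replicate 2. In sg6 it was 0.08 without WT replicate 1 and -0.56 without WT replicate 3. In rRNA-depleted RNA it was below 0 in each fit that left out a library, from -0.76 (without WT replicate 3) to -0.20 (without sg5 replicate 1) for sg5 and from -0.52 (without sg6 replicate 2) to -0.04 (without sg6 replicate 1) for sg6.

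The level of a phase in a single library, given as the median log2 distance of its members from their own mean over the 9 libraries, differed between libraries of the same line. For licensing in polyA RNA it was 0.67, 0.13 and -0.88 in WT replicates 1 to 3, -0.01, 0.55 and 0.10 in sg5, and 0.27, -0.15 and -0.68 in sg6. The WT libraries alone held both the highest and the lowest value, and the groups overlapped. In rRNA-depleted RNA it was 0.42, 0.56 and -0.12 in WT, -1.11, 0.13 and 0.02 in sg5, and -0.31, 0.51 and -0.16 in sg6. There, sg5 replicate 1 stood lowest by far, and the other libraries of the clones lay within or near the WT range. G2/M in polyA RNA took the values 0.47, 0.38 and -0.50 in WT, -0.29, 0.47 and 0.10 in sg5, and 0.05, 0.04 and -0.74 in sg6.

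**Figure D2:**
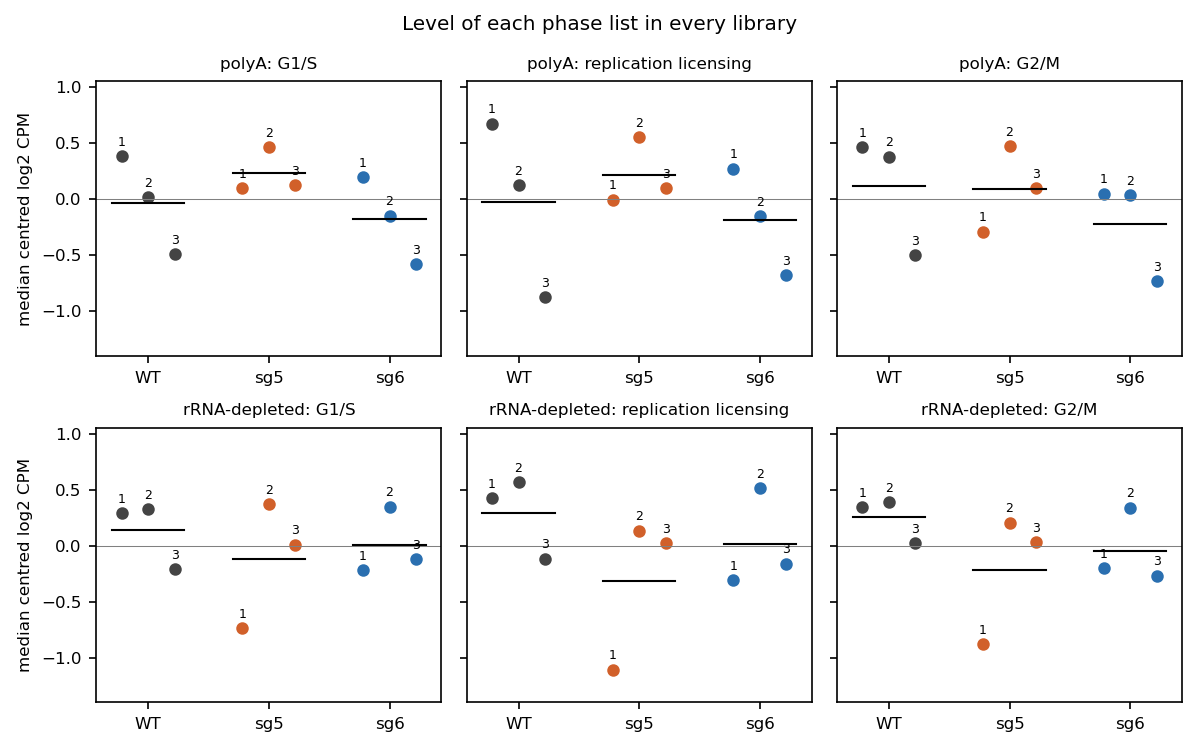
Median log2 CPM of the members of each phase, centred on each gene's mean over 9 libraries, in every library of *Atrx* WT, sg5 and sg6 (points with replicate numbers, n = 3 a group, lines at the group means), for polyA and rRNA-depleted RNA. In polyA RNA the licensing value of WT alone ran from -0.88 to 0.67 and enclosed the libraries of both clones, and in rRNA-depleted RNA a library of sg5 lay at -1.11.

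The members spread more widely within a line than the median gene did. The median ratio of the highest to the lowest library of polyA WT was 2.19 over the members, 2.07 for G1/S, 3.01 for licensing and 2.08 for G2/M, against 1.25 over the 10963 genes at or above the lowest member's level. It was 1.47 in sg5 and 1.82 in sg6, against 1.16 and 1.17. In rRNA-depleted RNA the ratio was 1.52 in WT, 2.34 in sg5 and 1.66 in sg6, against 1.31, 1.34 and 1.29. Most members were low or high in the same libraries. WT replicate 3 was the lowest of the WT libraries for 40 of 43 members in polyA RNA, where it was lowest for 44.5% of all such genes. In sg6, replicate 3 was lowest for 41 members (35.5% of all genes), and in sg5, replicate 2 was highest for 40 (36.0%). A term for the replicate number called 0 members in either kind, where it called 2.73% of polyA genes and 0.367% of rRNA-depleted features.

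**Figure D3:**
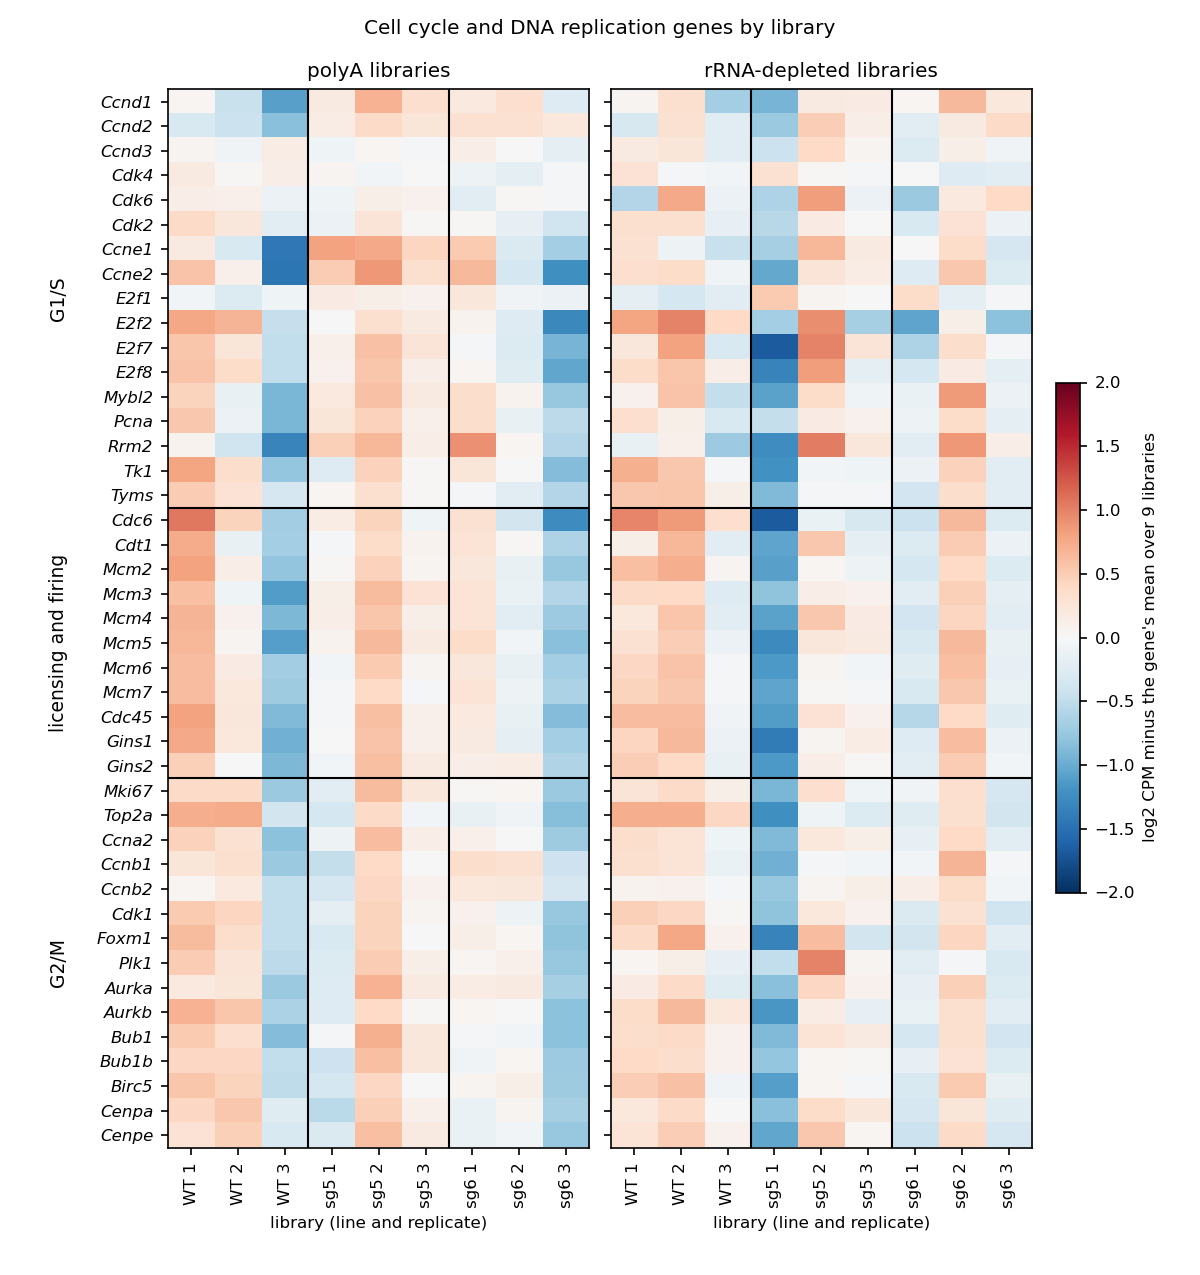
Heat map of log2 CPM minus each gene's mean over 9 libraries (colour, from -2 to 2) for the 43 members (rows, by phase) in every polyA and rRNA-depleted library (columns). Whole columns are darker or paler across phases, among them the low WT replicate 3 and sg6 replicate 3 in polyA RNA and the low sg5 replicate 1 in rRNA-depleted RNA.

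Among the regulators of G1/S, the genes of 2 D-type cyclins, *Ccnd1* and *Ccnd2*, whose products bind CDK4 and CDK6, were the only members called higher in polyA RNA, by the adjusted p alone. *Ccnd2* (chr6:127125162-127152193, minus strand) was at 128, 118 and 89.0 CPM in WT, 175, 206 and 189 in sg5, and 195, 196 and 183 in sg6. Every library of both clones lay above every WT library. Its log2 fold change was 0.77 (SE 0.13, adjusted p = 0.00256) in sg5 and 0.78 (SE 0.13, adjusted p = 0.00196) in sg6 by edgeR. *Ccnd2* kept its direction and an adjusted p below 0.05 in all 16 alternative fits. In rRNA-depleted RNA *Ccnd2* was at 53.6, 82.2 and 57.3 CPM in WT, 39.9, 93.5 and 73.4 in sg5, and 57.7, 75.5 and 87.3 in sg6. There the groups overlapped, with log2 fold changes of 0.10 (95% interval -0.48 to 0.68) and 0.19 (-0.39 to 0.77).

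*Ccnd1* (chr7:144929931-144939925, minus strand), the D-type cyclin most directly coupled to growth factor signals, was at 213, 152 and 98.3 CPM in polyA WT, 236, 336 and 263 in sg5, and 238, 263 and 174 in sg6. All sg5 libraries lay above WT, while sg6 replicate 3 lay below WT replicate 1. The log2 fold change of *Ccnd1* was 0.85 (SE 0.27, adjusted p = 0.0429, edgeR) in sg5 and 0.55 (SE 0.27, adjusted p = 0.155) in sg6. The call in sg5 was lost without WT replicate 2 (adjusted p = 0.117) or 3 (0.0864), without sg5 replicate 1 (0.0553), 2 (0.136) or 3 (0.0821), and without sg6 replicate 1 (0.0578) or 2 (0.0591), and without WT replicate 1 the log2 fold change was 1.15 (0.0104). In rRNA-depleted RNA *Ccnd1* was at 189, 228 and 114 CPM in WT, 95.4, 207 and 204 in sg5, and 188, 285 and 212 in sg6, and the groups overlapped. *Ccnd3*, the remaining D-type cyclin, had log2 fold changes in polyA RNA of -0.07 (95% interval -0.28 to 0.14) and -0.05 (-0.26 to 0.16), intervals that lie within a log2 fold change of 1 on each side.

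Per kilobase of exon in polyA WT, *Ccnd1* stood at 32.8 ± 12.2 CPM per kb (SD, n = 3), *Ccnd2* at 11.9 ± 2.16 and *Ccnd3* at 10.00 ± 0.743, and the last 2 did not differ beyond their spread. In sg5 the same levels were 59.1 ± 11, 20.2 ± 1.67 and 9.52 ± 0.395 CPM per kb, and in sg6 47.9 ± 9.77, 20.3 ± 0.740 and 9.67 ± 1.0. In both clones *Ccnd2* thus stood above *Ccnd3* by more than their spread. *Ccnd1* and *Ccnd2* each have an exon overlapped by a gene of the other strand, as have 15 of the 43 members, and the strand setting of the counting is not given in the sources used here, so reads of such partners cannot be told apart.

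The kinase partners moved little. *Cdk4* was at 451, 404 and 440 CPM in polyA WT, 414, 386 and 401 in sg5, and 371, 348 and 390 in sg6. The sg6 libraries lay below all WT libraries, with a log2 fold change of -0.22 (SE 0.08, adjusted p = 0.059, edgeR), which missed the threshold. For *Cdk6* the 95% interval of the polyA log2 fold change was -0.23 to 0.22 in sg5 and -0.34 to 0.11 in sg6. In rRNA-depleted RNA *Cdk6* had the smallest p of all members for the replicate number (unadjusted p = 0.000233 by edgeR's F test, adjusted p = 0.0551), and its CPM was 7.97, 20.3 and 11 in WT, 7.85, 21.4 and 11.1 in sg5, and 7.15, 13.8 and 15.8 in sg6.

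*Ccne1* (chr7:38097984-38107534, minus strand), which encodes the cyclin that activates CDK2 at the start of S phase, was at 12.6, 9.03 and 4.14 CPM in polyA WT, 19.5, 18.8 and 15.1 in sg5, and 16.1, 9.11 and 6.94 in sg6. The sg5 libraries lay above all WT libraries and those of sg6 overlapped WT. Its log2 fold change in sg5 was 1.06 (SE 0.40, adjusted p = 0.0776, edgeR) and missed the threshold, which, among the fits without a replicate term, it passed with DESeq2 (adjusted p = 0.0286) and without WT replicate 1 (log2 fold change 1.42, adjusted p = 0.0319). In sg6 *Ccne1* had a value of 0.33 (95% interval -0.57 to 1.22), and in rRNA-depleted RNA 0.21 and 0.09.

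Of the E2F factors, *E2f1*, an activator, was at 55.1, 47.1 and 53.9 CPM in polyA WT and 63.7, 62.1 and 60.2 in sg5, and at 17.2, 15.4 and 16.9 CPM in rRNA-depleted WT and 28.3, 20.4 and 19.7 in sg5. The sg5 libraries lay above WT in both kinds, with log2 fold changes of 0.25 in polyA RNA (adjusted p = 0.0964) and 0.47 in rRNA-depleted RNA (0.237), neither of them called. *E2f2*, another activator, had log2 fold changes of -0.26 in sg5 and -0.81 in sg6 in polyA RNA (adjusted p = 0.656 and 0.143) and of -0.70 and -1.22 in rRNA-depleted RNA (0.477 and 0.249). The low *E2f2* counts were 2.01, 2.32 and 1.53 CPM in rRNA-depleted WT and 0.560, 1.27 and 0.657 in sg6, which did not overlap. Among the fits without a replicate term, *E2f2* passed as lower in sg6 in polyA RNA without WT replicate 3 (log2 fold change -1.11, adjusted p = 0.0376). The repressors *E2f7* and *E2f8* had intervals that spanned 0 in each clone and kind.

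Among the S phase genes that E2F switches on, *Rrm2*, the ribonucleotide reductase subunit that limits the supply of deoxyribonucleotides, had the highest log2 fold changes. It was at 78.5, 56.7 and 29.9 CPM in polyA WT, 103, 117 and 81.2 in sg5, and 140, 76.1 and 49.7 in sg6. All sg5 libraries lay above WT, by a narrow margin, and the sg6 libraries overlapped WT. The log2 fold changes of *Rrm2* were 0.87 (SE 0.41, adjusted p = 0.145, edgeR) and 0.69 (SE 0.41, adjusted p = 0.233) in polyA RNA, and 0.49 and 0.55 in rRNA-depleted RNA (adjusted p = 0.625 and 0.692). *Pcna*, the sliding clamp of the DNA polymerases, was at 238, 151 and 86.5 CPM in polyA WT, 194, 225 and 176 in sg5, and 208, 148 and 114 in sg6, and WT alone spanned all clone libraries. *Tk1*, thymidine kinase, had log2 fold changes of -0.15 and -0.39 in polyA RNA and -0.80 and -0.37 in rRNA-depleted RNA (adjusted p = 0.161 and 0.696). In rRNA-depleted RNA the *Tk1* libraries of sg5, at 58.1, 130 and 127 CPM, lay just below those of WT, at 220, 197 and 132. *Tyms*, thymidylate synthase, likewise had sg5 libraries below WT there, at 42.4 to 76.8 against 84.9 to 115 CPM, with a log2 fold change of -0.68 (adjusted p = 0.158).

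**Figure D4:**
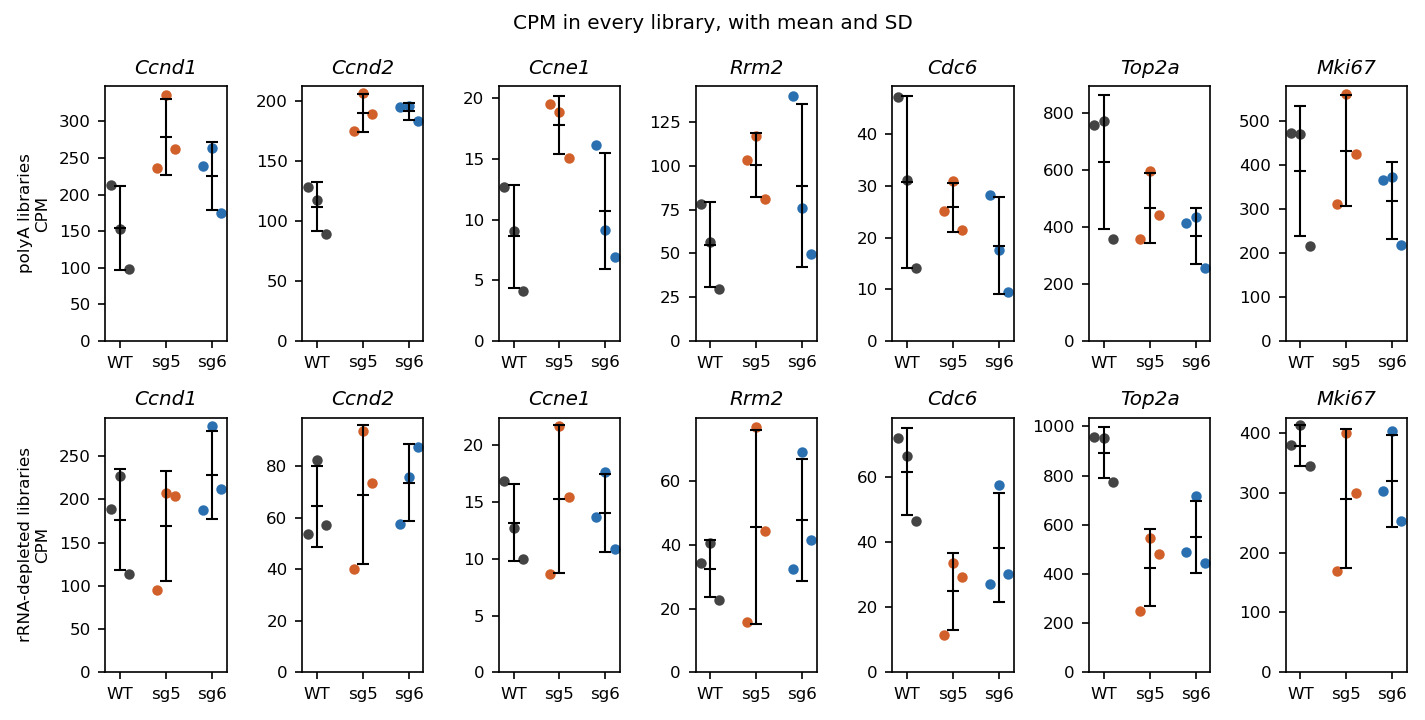
CPM of *Ccnd1*, *Ccnd2*, *Ccne1*, *Rrm2*, *Cdc6*, *Top2a* and *Mki67* in every polyA and rRNA-depleted library of *Atrx* WT, sg5 and sg6 (points), with the mean and SD (n = 3). *Ccnd2* in polyA RNA runs from 89.0 to 128 CPM in WT and from 175 to 206 over both clones without overlap, while *Mki67* overlaps among all groups.

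In licensing, *Cdc6* (chr11:98907801-98923940, plus strand), the loader of the helicase, had the lowest log2 fold change of all members in sg5 in rRNA-depleted RNA. It was at 71.8, 66.3 and 46.3 CPM in WT, 11.5, 33.5 and 29.3 in sg5, and 27.2, 57.3 and 30.1 in sg6. The sg5 libraries lay below all WT libraries and those of sg6 overlapped. Its log2 fold change in sg5 was -1.31 (SE 0.36, adjusted p = 0.0595, edgeR), which missed the threshold, and -0.68 (adjusted p = 0.463) in sg6. Among the fits without a replicate term, *Cdc6* passed with DESeq2 (log2 fold change -1.27, adjusted p = 0.0161), with no filter on low counts (-1.29, 1.71e-06), over gene rows alone (-1.37, 0.0409), with only WT and sg5 in the fit (-1.30, 0.0463), and without sg6 replicate 1 (0.0419) or 2 (0.0263). In polyA RNA *Cdc6* was at 47.3, 31.1 and 14 CPM in WT, 25.1, 30.9 and 21.5 in sg5, and 28.2, 17.6 and 9.47 in sg6. There the groups overlapped, with log2 fold changes of -0.25 (95% interval -1.26 to 0.76) and -0.74 (-1.76 to 0.29).

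The 6 helicase subunits *Mcm2* to *Mcm7* were not called in either clone or kind. In polyA RNA their log2 fold changes ran from -0.01 (*Mcm7*) to 0.40 (*Mcm3*) in sg5 and from -0.36 (*Mcm2*) to -0.07 (*Mcm3*) in sg6, with adjusted p-values of 0.472 or more. In rRNA-depleted RNA they ran from -0.79 (*Mcm2*) to -0.19 (*Mcm4*) in sg5 and from -0.52 (*Mcm2*) to -0.12 (*Mcm5*) in sg6, so *Mcm2* was the lowest of them in both. *Mcm2* was at 178, 194 and 122 CPM in rRNA-depleted WT, 55.3, 121 and 109 in sg5, and 92.4, 156 and 97.0 in sg6. The sg5 libraries of *Mcm2* lay below WT, the highest of them by a narrow margin, with a log2 fold change of -0.79 (SE 0.28, adjusted p = 0.158, edgeR). *Mcm6*, whose start region is shown above, was at 217, 159 and 87.8 CPM in polyA WT, 137, 203 and 147 in sg5, and 165, 127 and 88.4 in sg6, and the WT range enclosed every library of the clones.

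Per kilobase of exon in polyA WT the helicase subunits stood at 40.0 ± 19.9 (*Mcm4*), 33.6 ± 18.2 (*Mcm3*), 33.1 ± 13.8 (*Mcm6*), 24.4 ± 13.2 (*Mcm5*), 22.3 ± 9.42 (*Mcm7*) and 11.3 ± 5.81 (*Mcm2*) CPM per kb (SD, n = 3). The SDs of neighbours in this order overlapped, but the subunits share this spread. WT replicate 1 was highest and WT replicate 3 lowest for all 11 licensing genes. The SDs therefore do not say whether the order held within each library. *Cdt1*, which loads the helicase with CDC6, had log2 fold changes of 0.06 and -0.15 in polyA RNA and -0.32 and -0.15 in rRNA-depleted RNA. *Cdc45*, which joins the helicase at firing, had 0.05 and -0.41, then -0.55 and -0.50, and the GINS subunit *Gins2* had 0.30 and -0.03, then -0.50 and -0.16. None of the 3 had an adjusted p below 0.437 in any of these.

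Of the G2/M genes, *Top2a* (chr11:98992943-99024189, minus strand), the topoisomerase that untangles sister chromatids, was the only one called. In rRNA-depleted RNA it was at 955, 953 and 772 CPM in WT, 248, 547 and 480 in sg5, and 489, 719 and 446 in sg6. Every library of both clones lay below every WT library (8.61% of the 13303 gene rows had this pattern). *Top2a* fell by 1.07 on the log2 scale (SE 0.25, adjusted p = 0.031, edgeR) in sg5, and in sg6 the value was -0.70 (SE 0.25, adjusted p = 0.226), which missed the threshold. The call in sg5 was lost without WT replicate 1 (adjusted p = 0.109), 2 (0.116) or 3 (0.0592), and without sg5 replicate 1 (log2 fold change -0.77, 0.061) or 3 (0.0544). In polyA RNA *Top2a* was at 759, 771 and 357 CPM in WT, 358, 598 and 443 in sg5, and 414, 437 and 255 in sg6. WT replicate 3 lay among the clones' libraries there, with log2 fold changes of -0.43 (adjusted p = 0.357) and -0.77 (0.0999), and without WT replicate 3 the value in sg6 was -1.05 (0.0166) and passed.

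*Top2a* and *Cdc6* lie 69002 bases apart on chromosome 11, where other genes were lower too. The other tested genes within 5 Mb of *Top2a* had a median log2 fold change in rRNA-depleted RNA of -0.35 in sg5 and -0.23 in sg6 (199 genes), and in polyA RNA of -0.40 and -0.29 (236 genes). Measured against that median, *Top2a* stood at -0.72 in sg5 and -0.47 in sg6 in rRNA-depleted RNA, and at -0.03 and -0.48 in polyA RNA. *Cdc6*, against the genes within 5 Mb of it, stood at -0.96 and -0.45 in rRNA-depleted RNA, and at 0.16 and -0.45 in polyA RNA. Around *Rrm2* on chromosome 12 the median was 0.41 and 0.50 in polyA RNA (25 genes) and 0.68 and 0.65 in rRNA-depleted RNA (20 genes). Against it, *Rrm2* stood at 0.46 and 0.19 in polyA RNA and at -0.19 and -0.09 in rRNA-depleted RNA. Around *Ccnd1* the polyA median was within 0.01 of 0 and around *Ccnd2* it was -0.16 and -0.14, so against their surroundings these cyclins stood at 0.85 and 0.55, and at 0.93 and 0.92. This comparison was chosen after the data were seen, and the part of the surrounding region in these values was not tested.

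**Figure D5:**
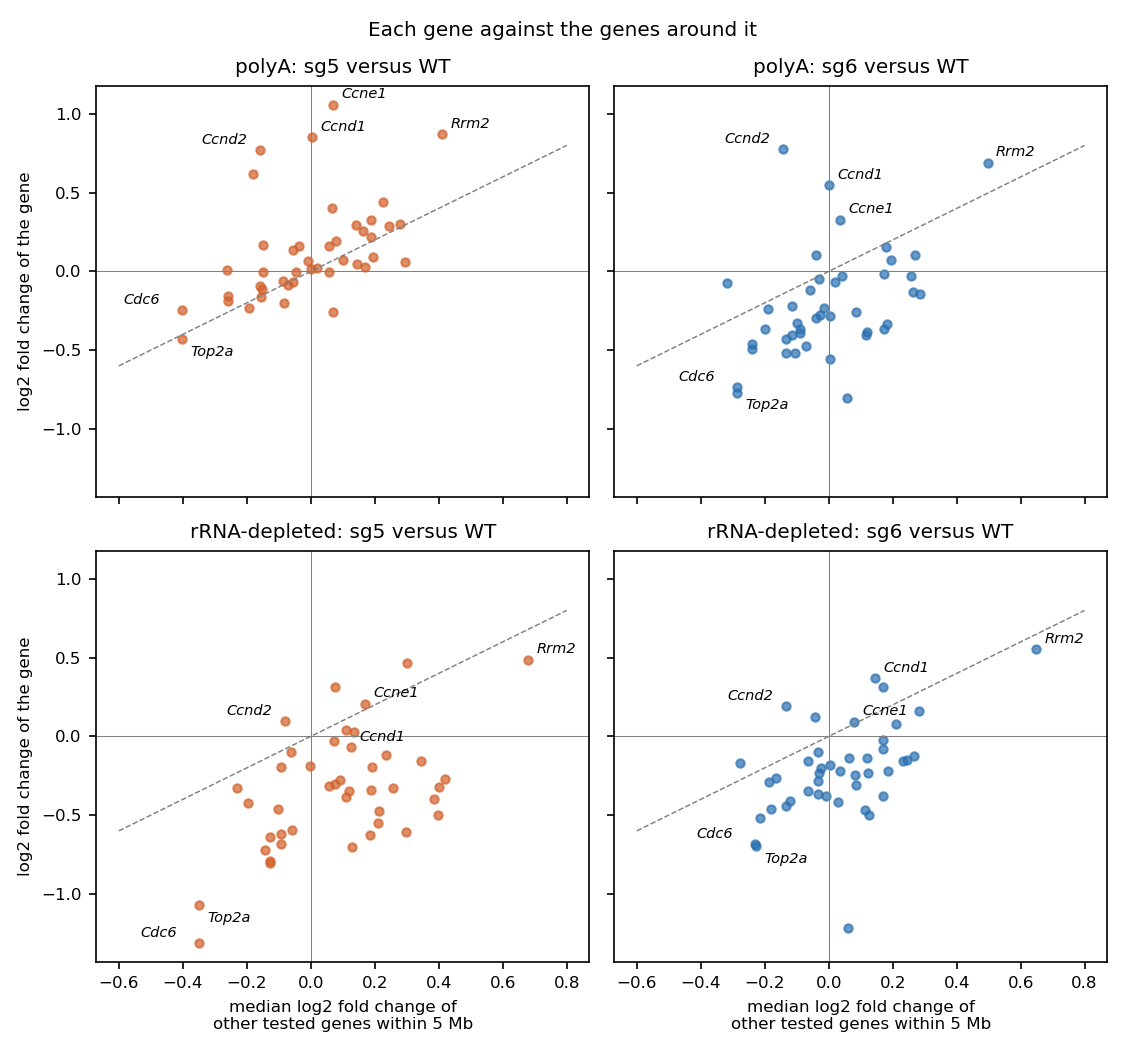
Log2 fold change of each member (y axis) against the median log2 fold change of the other tested genes within 5 Mb of it (x axis), for each clone and library kind, with a dashed line where both are equal. *Rrm2* lies at the right, among genes with medians of 0.41 to 0.68, and *Top2a* and *Cdc6* at the left, among genes with negative medians, while *Ccnd1* and *Ccnd2* lie above the line in polyA RNA.

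*Mki67*, the proliferation marker Ki-67, was at 473, 469 and 216 CPM in polyA WT, 311, 562 and 424 in sg5, and 366, 371 and 217 in sg6. In rRNA-depleted RNA *Mki67* was at 379, 413 and 344 CPM in WT, 169, 400 and 299 in sg5, and 303, 402 and 253 in sg6. The groups overlapped in each kind, and the log2 fold changes of *Mki67* were 0.16 (95% interval -0.59 to 0.91) and -0.28 (-1.03 to 0.47) in polyA RNA, and -0.39 (-0.93 to 0.16) and -0.25 (-0.79 to 0.30) in rRNA-depleted RNA. *Ccnb2*, a B-type cyclin of CDK1, had 0.14 (-0.39 to 0.67) and 0.11 (-0.43 to 0.64), then -0.19 (-0.63 to 0.25) and 0.12 (-0.32 to 0.56), so a change beyond 1 lay outside each interval. *Foxm1*, a factor that switches on G2/M genes, had -0.16 and -0.40 in polyA RNA and -0.59 and -0.44 in rRNA-depleted RNA. The mitotic kinases *Plk1* and *Aurka* had 0.01 and 0.29 in sg5 and -0.30 and -0.03 in sg6 in polyA RNA. *Aurkb*, the kinase of the chromosomal passenger complex, had -0.23 and -0.52 in polyA RNA and -0.72 and -0.41 in rRNA-depleted RNA, where its sg5 libraries at 18 to 44.9 CPM lay below WT at 47.2 to 63.5. *Bub1b*, a spindle checkpoint kinase, was the remaining G2/M member whose sg5 libraries lay below WT there. In all, 7 members had every sg5 library below WT in rRNA-depleted RNA, or 16.3% of them against 14.9% of all gene rows.

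Counted over all members, 5 had every sg5 library above every WT library in polyA RNA (21.2% of all genes did), namely *Ccnd1*, *Ccnd2*, *Ccne1*, *E2f1* and *Rrm2*, and 0 had every one below (20.3%). In sg6 it was 1 above (*Ccnd2*, 22.4%) and 1 below (*Cdk4*, 20%), and in both clones 1 above (15.8%) and 0 below (13.9%). In rRNA-depleted RNA 1 was above in sg5 (*E2f1*, 21.4%), 0 in sg6 (17.1%) and 0 in both (11.5%), and 2 were below in sg6 (*E2f2* and *Top2a*, 14.2%). These shares of members were under those of all genes except for the lower libraries of sg5 in rRNA-depleted RNA, where they were close to it.

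Since whole libraries were high or low in these genes, each member was also set against the median log2 CPM of 41 other genes of mitosis and cytokinesis in the same library, a comparison chosen after the data were seen and given without a test. On this relative scale *Top2a* was at 3.42, 3.50 and 3.33 in polyA WT, 3.04, 2.93 and 2.98 in sg5, and 3.01, 3.03 and 2.94 in sg6. It was at 3.64, 3.63 and 3.73 in rRNA-depleted WT, 3.09, 3.05 and 2.99 in sg5, and 3.30, 3.27 and 3.21 in sg6. The relative level of *Top2a* was lower in every library of both clones in each kind, and its libraries lay closer together than on the CPM scale. *Ccnd1* was higher in every library of both clones in each kind, by 0.85 and 0.90 in polyA RNA and by 0.43 and 0.72 in rRNA-depleted RNA. So was *Rrm2*, by 0.91 and 0.97, and by 0.78 and 0.83. The same held for the G2/M member *Aurka*, by 0.25 and 0.29, and by 0.30 and 0.22. In rRNA-depleted RNA the 41 genes themselves had median log2 fold changes of -0.38 in sg5 and -0.25 in sg6. A gene without a change of its own thus stood higher on this scale there. The edgeR log2 fold changes in that kind were -0.07 and 0.37 for *Ccnd1*, 0.49 and 0.55 for *Rrm2*, and -0.15 and -0.08 for *Aurka*. *Ccnd2* was higher in every polyA library of the clones, by 0.73 and 1.09, but overlapped WT in sg6 in rRNA-depleted RNA. In polyA RNA 4 members, or 9.3%, were above WT in both clones (3.33% of all genes were) and 1, or 2.33%, was below (4.43%). In rRNA-depleted RNA 8, or 18.6%, were above (19.9%) and 3, or 6.98%, below (2.98%). Those 3 were *Top2a*, *Cdc6* (-0.90 and -0.43) and *Mcm2* (-0.32 and -0.21), and the last 2 overlapped WT in both clones in polyA RNA. Taken by clone, 32.6% of members and 41.7% of all rRNA-depleted gene rows lay above WT in sg5, and 25.6% and 24.7% in sg6. Set instead against the 36 genes of origins, polymerases, forks and nucleotide supply, the polyA differences were -0.51 and -0.58 for *Top2a*, 0.77 and 0.74 for *Ccnd1* and 0.83 and 0.81 for *Rrm2*, and in rRNA-depleted RNA the sg5 libraries of *Ccnd1* and *Rrm2* overlapped WT. Against those genes *Aurka* overlapped WT in both clones and kinds.

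No member was called between the clones. In polyA RNA 0 members passed the threshold between sg5 and sg6, where 1.36% of all genes were higher and 1.25% lower in sg5, and 1 member had an unadjusted p below 0.05. The median difference over the members was 0.34 on the log2 scale, higher in sg5, with 40 of 43 above 0. Of all 15480 genes, 7683 were above 0. In rRNA-depleted RNA the median difference was -0.14, with 13 of 43 members above 0, where 7581 of the 13303 gene rows were. There, 0 members passed (0.207% and 0.259% of all features). Also 0 had an unadjusted p below 0.05, against 7.98% of features and 13.5% of gene rows. DESeq2 called 0 members between the clones in either kind.

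Genes of the same pathways outside the members were read from lists written for this comparison. Of 41 genes of mitosis and cytokinesis, 0 passed even the adjusted p alone in polyA RNA, and in rRNA-depleted RNA *Spc24*, a kinetochore subunit gene, was lower in sg5 (log2 fold change -1.03, adjusted p = 0.0409, edgeR). Their median was 0.05 in sg5 and -0.23 in sg6 in polyA RNA, and -0.38 and -0.25 in rRNA-depleted RNA. Of 36 genes of origins, polymerases, forks and nucleotide supply, 1 rose and 1 fell in sg5 and 1 rose and 4 fell in sg6 in polyA RNA by the adjusted p alone, where 13.6% of all genes rose and 13.4% fell in sg5, and 16.1% rose and 14.6% fell in sg6. The origin recognition genes *Orc4* (0.39 and 0.25) and *Orc3* (-0.21 and -0.29) were called in both clones. *Cdc7*, the kinase that fires origins, was lower in sg6 in polyA RNA (-0.99, adjusted p = 0.0263) and in sg5 in rRNA-depleted RNA (-1.18, adjusted p = 0.034), as was *Pold2*, a subunit of DNA polymerase delta, in the latter (-0.89, adjusted p = 0.026).

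Of 15 RB, E2F and MuvB regulators, 3 rose in sg5, and 4 rose and 2 fell in sg6, in polyA RNA by the adjusted p alone, where 13.6% of all genes rose in sg5, and 16.1% rose and 14.6% fell in sg6. *Rb1*, the retinoblastoma gene that holds E2F in check, rose by 0.60 (adjusted p = 0.00511) and 0.76 (adjusted p = 0.00127) on the log2 scale. *E2f4*, a repressive E2F, rose by 0.43 and 0.35, and *Lin52*, a MuvB subunit, by 0.54 and 0.50. These values were not set against surrounding genes. The median polyA change of a whole chromosome ran from -0.26 (chromosome 11) to 0.42 (chromosome 18) in sg5. In sg6 it ran from -0.22 (chromosome 5) to 0.37 (chromosome 18), and the part of such shifts here was not tested. In sg6 *E2f6* (-0.72) and *Skp2* (-0.73), which encodes a ubiquitin ligase subunit that targets p27, were lower. None of the 15 passed in rRNA-depleted RNA, where 2 had an unadjusted p below 0.05 in each clone.

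Of 4 CDK inhibitor genes tested, *Cdkn1a*, which encodes p21, was the only one called, and it passed the full threshold in both clones in polyA RNA. It was at 119, 124 and 102 CPM in WT, 241, 221 and 239 in sg5, and 221, 288 and 322 in sg6, with no overlap. *Cdkn1a* rose by 1.02 (adjusted p = 0.000745, edgeR) and 1.26 (adjusted p = 0.000199) on the log2 scale. In rRNA-depleted RNA it was at 23.0, 25.8 and 24.1 CPM in WT, 34.3, 39.2 and 33.2 in sg5, and 48.9, 35 and 53.1 in sg6, again with no overlap. There its log2 fold change was 0.55 in sg5 (adjusted p = 0.104) and 0.91 in sg6 (0.00941), and *Cdkn1a* passed by the adjusted p alone in sg6.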

How the data were processed

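RNA-seq of 3 lines was analysed in 9 polyA-selected and 9 rRNA-depleted libraries, with groups and replicate numbers taken from the sample labels. For the polyA libraries, the authors trimmed reads with Rfastp, quantified mm10 known genes with Salmon (0.8.2 in the submitters' processing notes) and deposited the estimated counts per gene from tximport. These deposited expected counts were already whole numbers. Reads of the rRNA-depleted libraries were aligned by the authors to mm10 with STAR (2.27.10a), and the deposited values are TElocal read counts of genes and transposable element loci. The strand setting of the counting is not given in the sources used here.

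Entrez identifiers of 24045 of the 24100 gene rows were matched to symbols. Differential expression was tested with edgeR 4.0.16 (limma 3.58.1, R 4.3.3): filterByExpr (minimum count 10), TMM, and the quasi-likelihood test on the 9 libraries of a kind with group alone in the model, p-values being adjusted by Benjamini-Hochberg over the 15480 polyA genes or the 56086 rRNA-depleted features tested. CPM used the totals of the rows that passed the filter, scaled by the TMM factors, and log2 CPM a prior count of 2. The members and gene lists were chosen with earlier results of these data known. Members named are those past the threshold, the 2 highest and 2 lowest of each phase and kind, common markers, the D-type cyclins, the MCM subunits, the 3 with the smallest p for the replicate number, and pathway genes called in both clones; *E2f7*, *E2f8*, *Cdk4*, *Tyms*, *Bub1b* and other pathway genes called were named after their values were seen. Alternatives were DESeq2 1.42.0, median-of-ratios size factors, other filters on low counts, the replicate block, only the 2 groups compared, counts thinned to the smallest library, gene rows alone, and leaving out each library. Chosen after seeing the data were the levels relative to gene lists and to surrounding genes. Gene positions come from GENCODE on GRCm38, the assembly called mm10, and promoter windows from RefSeq. In simulated data edgeR found 97 of 100 genes changed by a log2 fold change of 1.5 and 98 of 100 changed by 2 among 15340 polyA genes, and 88 and 98 of 100 among 47968 rRNA-depleted features. The changed features were drawn at random above a minimum level, varied independently, changed alike in both clones and had to be called in both. The members spread more within a line and moved together by library, so these rates do not carry over to them. Figures were drawn with matplotlib 3.10.9.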

Additional observations from a re-analysis of the deposited data

Results flagged for a closer look

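The sg5 and sg6 clones differed in *E2f6*, a repressive E2F of the pathway lists, in polyA RNA, with a log2 fold change between the clones of 0.776 (adjusted p = 0.00766 by edgeR's quasi-likelihood test with Benjamini-Hochberg adjustment). *E2f6* was at 22.6, 25.4 and 22.8 CPM in WT, 22.6, 27.5 and 23.8 in sg5, and 15.4, 15.7 and 12 in sg6. The sg6 libraries lay below all others, and those of sg5 overlapped WT. In rRNA-depleted RNA the difference of *E2f6* between the clones was 0.33 and was not called (adjusted p = 0.802).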

How the results depend on the processing

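No called fold change reversed under the alternatives run, which says nothing of fold changes that were not called. In polyA RNA 338 of 362 recomputed counts and medians stayed within 1.5 times or 1 SD of the reported value, as did 355 of 384 in rRNA-depleted RNA. Counts that stayed at 0 are among them, and a median could stay by this rule and still change sign. The polyA licensing median did so, from -0.21 to 0.49 in sg5 and from -0.56 to 0.08 in sg6 with a library left out. In polyA RNA the members higher in sg5 by fold and adjusted p numbered 1 with DESeq2, 1 with a replicate block, 2 by the adjusted p alone, and 0 to 2 when a library was left out. By the adjusted p alone they numbered 5 with the replicate block, 1 with only the 2 groups compared, and 1 to 3 with a library left out. Members higher in sg6, and in both clones, numbered 1 by the adjusted p alone, 2 with the replicate block, and 1 to 2 with a library left out. Members lower in sg6 by the adjusted p alone numbered 2 with DESeq2, 1 with median-of-ratios size factors, 1 with at least 10 counts in every library, 3 with the replicate block and 0 to 5 with a library left out, and by fold and adjusted p 0 to 2. The highest counts, 5 and 2, came without WT replicate 3, and the 2 and 3 members higher in sg5 without WT replicate 1. In rRNA-depleted RNA the members lower in sg5 numbered 2 with DESeq2, with the replicate block, with only the 2 groups compared, with gene rows only and with no filter on low counts, and 0 to 2 with a library left out. By the adjusted p alone they numbered 2 with DESeq2, 2 with only the 2 groups compared, 2 with gene rows only, 4 with no filter, 4 with the replicate block, and 0 to 2 with a library left out. They were 0 without any of WT replicates 1, 2 and 3 or sg5 replicates 1 and 3, and 2 without sg6 replicate 1 or 2. Members lower in sg6 numbered 1 with the replicate block by fold and adjusted p, and by the adjusted p alone 1 with no filter and 1 with the block. In both clones it was 1 with no filter, and the replicate term called 1 member with at least 10 counts in every library. With the block, *Rrm2* passed by the adjusted p in both clones in polyA RNA (0.99, adjusted p = 0.00869, and 0.67, 0.0368, by edgeR), *Ccne1* (1.17, 0.00478) and *E2f1* (0.26, 0.0377) in sg5, and *Top2a* (-0.74, 0.0292), *Tyms* (-0.44, 0.0371) and *Cdk4* (-0.22, 0.0217) in sg6, and in rRNA-depleted RNA *Cdc6* (-1.41, 0.0139), *Mcm2* (-0.83, 0.0427) and *Aurkb* (-0.78, 0.0391) in sg5 and *E2f2* (-1.31, 0.0446) in sg6, beside the members called without it. By the adjusted p with the block, 19.4% of polyA genes were higher in sg5 and 18.9% lower in sg6, against 11.6% and 6.98% of members. In both clones 15% of genes were higher, against 4.65% of members. In rRNA-depleted RNA 3.05% of features, transposable element loci among them, were lower in sg5, against 9.3% of members. In sg6 it was 2.32% of features and 2.33% of members. The causes of the differences between fits were not tested. The replicate numbers did not pair the libraries by the rule used, since the correlation of deviations from the group means between libraries of the same number was as low as 0.0257 in polyA RNA and 0.0554 in rRNA-depleted RNA, and 6 of 9 polyA and 5 of 9 rRNA-depleted libraries correlated best with their own number. With 3 libraries of 1 line in each group, 16 to 33 of the 43 members had 95% intervals within a log2 fold change of 1, depending on clone and kind, and depth differed between the polyA lines.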
